A study of Homo sapiens with 3 samples.

Results

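The collagen genes are the 44 protein-coding genes of a GRCh38.p14 RefSeq gene table whose symbol is COL, a type number, A and a chain number, out of 20037 protein-coding genes. They cover 28 collagen types. Following the usual division of the family, 10 genes belonged to basement membrane or related network types (4, 8, 15 and 18), 9 to fibrillar types (1, 2, 3, 5 and 11) and 25 to other types. Their chromatin was described from 1 ATAC-seq library, labelled replicate 2, of hCMEC/D3, an immortalized human cell line derived from the endothelium of brain microvessels. In ATAC-seq the Tn5 transposase cuts accessible DNA, so that tags pile up where chromatin is open. The cells carried no treatment, were taken at confluence and, per the labels, grew on a coating of rat tail type I collagen, so collagen was present as a substrate from outside the cells. With 1 library of 1 cell line and no second condition, there was no replicate of any value and no test, and every value below describes this library.

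Collagens are extracellular proteins built of chains wound around each other in a triple helix. Type 4 collagen forms the sheet-like network of basement membranes, the layer on which endothelial cells rest, and types 8, 15 and 18 are found in or next to that layer. Fibrillar collagens assemble into the banded fibrils of bone, skin, tendon, cartilage and vessel walls and are mostly made by fibroblasts, smooth muscle cells, osteoblasts and chondrocytes. In the genome the type 4 chains lie in head-to-head pairs, with the start sites of both genes of a pair close together and transcribed away from each other.

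Sequence around the start site (250 bases before it to 50 after it, RefSeq, GRCh38.p14) was listed for 32 of the 44 genes. Shown first are the starts of 1 gene of each type 4 pair, then COL8A2 and COL18A1 for the other basement membrane types, COL5A1 for the fibrillar genes with a peak at the start, COL11A1 as a fibrillar gene without one, and COL12A1, whose start peak had the highest pileup of the collagens outside these types. Each is written 5′ to 3′ on the strand of the gene. Capitals mark matches on either strand to the GC box GGGCGG, which reads CCGCCC on the other strand, and to the CCAAT box CCAAT, which reads ATTGG, and overlapping matches run together as 1 block of capitals.
COL4A1 (minus strand, chr13:110307108-110307407): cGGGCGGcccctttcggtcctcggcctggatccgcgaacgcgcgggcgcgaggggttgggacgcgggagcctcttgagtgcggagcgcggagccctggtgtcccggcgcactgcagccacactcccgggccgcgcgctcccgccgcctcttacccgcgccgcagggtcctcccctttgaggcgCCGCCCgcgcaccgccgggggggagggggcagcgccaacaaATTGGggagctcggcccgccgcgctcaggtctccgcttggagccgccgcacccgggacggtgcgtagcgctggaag
COL4A3 (plus strand, chr2:227164374-227164673): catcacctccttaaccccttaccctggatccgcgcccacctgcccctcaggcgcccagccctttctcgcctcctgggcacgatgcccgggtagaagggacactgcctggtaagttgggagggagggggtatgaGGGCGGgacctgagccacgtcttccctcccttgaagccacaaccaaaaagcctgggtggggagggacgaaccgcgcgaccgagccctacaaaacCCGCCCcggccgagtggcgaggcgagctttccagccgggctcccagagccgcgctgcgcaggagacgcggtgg
COL4A5 (plus strand, chrX:108439588-108439887): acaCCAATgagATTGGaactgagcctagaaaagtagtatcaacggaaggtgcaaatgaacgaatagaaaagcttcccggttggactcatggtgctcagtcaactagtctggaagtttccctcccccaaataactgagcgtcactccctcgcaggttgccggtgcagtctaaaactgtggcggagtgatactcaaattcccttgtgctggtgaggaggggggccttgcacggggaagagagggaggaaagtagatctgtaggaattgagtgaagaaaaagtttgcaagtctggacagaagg
COL8A2 (minus strand, chr1:36125173-36125472): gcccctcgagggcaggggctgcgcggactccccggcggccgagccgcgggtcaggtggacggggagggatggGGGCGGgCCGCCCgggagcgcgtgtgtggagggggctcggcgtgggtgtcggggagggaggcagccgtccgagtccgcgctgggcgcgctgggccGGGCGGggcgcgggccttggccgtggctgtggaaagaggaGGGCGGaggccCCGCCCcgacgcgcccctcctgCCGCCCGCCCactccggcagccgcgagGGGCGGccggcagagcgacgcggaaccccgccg
COL18A1 (plus strand, chr21:45404915-45405214): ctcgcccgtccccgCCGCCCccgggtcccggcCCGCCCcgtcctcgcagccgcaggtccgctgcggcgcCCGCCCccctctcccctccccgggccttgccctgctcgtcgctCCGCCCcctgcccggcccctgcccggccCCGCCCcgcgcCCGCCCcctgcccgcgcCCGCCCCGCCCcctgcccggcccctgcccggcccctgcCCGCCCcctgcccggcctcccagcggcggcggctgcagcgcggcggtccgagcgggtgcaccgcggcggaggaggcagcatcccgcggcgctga
COL5A1 (plus strand, chr9:134641555-134641854): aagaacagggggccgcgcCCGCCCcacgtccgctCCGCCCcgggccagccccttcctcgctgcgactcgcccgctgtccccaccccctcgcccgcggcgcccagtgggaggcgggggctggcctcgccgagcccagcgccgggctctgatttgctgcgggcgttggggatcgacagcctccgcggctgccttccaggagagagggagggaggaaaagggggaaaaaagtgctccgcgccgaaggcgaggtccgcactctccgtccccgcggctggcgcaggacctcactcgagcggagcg
COL11A1 (minus strand, chr1:103108473-103108772): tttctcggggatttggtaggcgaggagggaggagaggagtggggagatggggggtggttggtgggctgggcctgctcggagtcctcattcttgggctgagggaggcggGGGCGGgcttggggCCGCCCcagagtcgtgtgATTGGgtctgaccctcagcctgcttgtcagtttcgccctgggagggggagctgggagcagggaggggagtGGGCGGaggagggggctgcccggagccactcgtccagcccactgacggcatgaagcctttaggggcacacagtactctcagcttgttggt
COL12A1 (minus strand, chr6:75206004-75206303): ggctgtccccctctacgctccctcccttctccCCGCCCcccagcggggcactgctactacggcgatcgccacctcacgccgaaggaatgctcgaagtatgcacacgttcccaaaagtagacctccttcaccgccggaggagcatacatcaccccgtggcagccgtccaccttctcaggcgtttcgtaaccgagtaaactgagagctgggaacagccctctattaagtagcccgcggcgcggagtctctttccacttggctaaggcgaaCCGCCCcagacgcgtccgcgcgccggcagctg
A deposited peak covered all 300 bases of 6 of these 8 windows, 191 bases of the COL18A1 window and none of the COL11A1 window. The sequences differed in CpG content and in motif matches. COL18A1 held 46 CpG dinucleotides, COL4A1 and COL8A2 held 45 each, COL5A1 held 37, COL12A1 held 29 and COL4A3 held 24, against 12 in COL11A1 and 8 in COL4A5. COL8A2 and COL18A1 carried GC boxes in rows, with 8 and 9 matches, and COL4A5 carried none.

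Nearly every collagen gene held accessible chromatin somewhere along its length. Of the 44 genes, 43 had at least 1 peak inside the gene or within 1 kb of it (97.7%, 95% Wilson interval 88.2 to 99.6%), against 83.7% of all protein-coding genes and 94.9% of those longer than 100 kb. The exception was COL9A1, which encodes a chain of cartilage type 9 collagen and had no peak over 88 kb. Collagen genes are long, with a median of 144.7 kb against 24.1 kb for all protein-coding genes, and long genes have more room for a peak, so the share over genes longer than 100 kb is the closer background. Intervals here treat genes as separate draws, which neighbouring and head-to-head genes are not.

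At gene ends, in the whole peak list, the share of collagens with a peak was near that of other genes. It was lower than that of other genes when weaker peaks were left out, as given below. A peak within 1 kb of either end, called an end peak here, was found at 30 of 44 collagen genes (68.2%, 53.4 to 80%), against 72.8% of all protein-coding genes and 76.3% of those over 100 kb. Where a start site was listed, 23 of 32 collagens had a peak within 1 kb of it (71.9%), against 74.0% of protein-coding genes. The 14 genes without an end peak included the fibrillar COL2A1, COL3A1 and COL11A1, and, named after their values were seen, COL6A5, COL6A6, COL9A1, COL10A1, COL16A1, COL17A1, COL20A1, COL21A1, COL22A1, COL27A1 and COL28A1. COL21A1 and COL27A1 did have a peak at a listed start, which lay inside the extent of the gene.

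The end peaks that were present were low. Pileup is the mean number of extended tags over the peak, and for a gene with more than 1 end peak the highest was used. Its median was 26.8 tags over the 30 collagens with an end peak (95% interval 18.5 to 37.0) and 45.7 tags over the 14595 protein-coding genes with one, or 41.0 over those longer than 100 kb. Of the 30 collagens, 4 lay above the protein-coding median: COL8A1 at 68.3 tags, COL12A1 at 61.1, COL1A1 at 53.4 and COL5A2 at 51.7. The COL5A2 peak lay also at an end of the neighbouring WDR75. The fold of a peak over the local background of the same library was lower too, with a median of 3.92 for the collagens and 5.02 for all protein-coding genes.

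**Figure D1:**
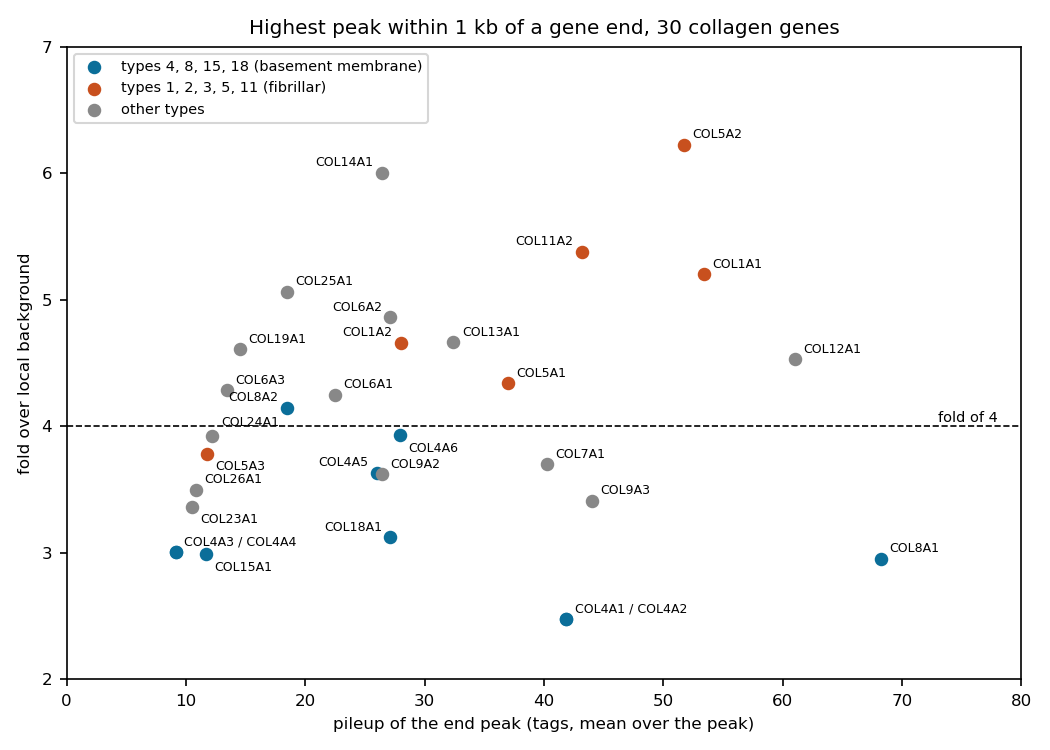
Highest peak within 1 kb of a gene end for the 30 collagen genes that have one: pileup in tags on the horizontal axis, fold over local background on the vertical axis, 1 point per gene or per pair sharing the peak, coloured by collagen class, with a dashed line at a fold of 4. Basement membrane genes lie at folds of 2.47 to 4.15 and fibrillar genes at 3.78 to 6.23.

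All 10 basement membrane genes had an end peak, whereas 6 of the 9 fibrillar genes had one (66.7%) and 14 of the 25 other genes did (56.0%), against 72.8% of all protein-coding genes. The intervals of the basement membrane share (72.2 to 100%) and the fibrillar share (35.4 to 87.9%) both include that background. The difference between basement membrane and fibrillar genes was 33.3 percentage points. Its 95% interval of -1.64 to 64.6 treats genes of 1 library as separate draws and is no test of the difference. The order depended on which peaks were kept. When peaks of at least 4-fold were kept, an end peak remained at 1 of 10 basement membrane genes, COL8A2 (10%), and at 5 of 9 fibrillar genes (55.6%), against 56.0% of all protein-coding genes. With peaks kept by a -log10 q of at least 5 the values were 70.0% and 55.6%, and by highest pileup, in the same number as the fold filter keeps, they were also 70.0% and 55.6%. Under all of these filters COL5A2 and COL11A2 counted among the fibrillar genes only through peaks that lie also at an end of a neighbour, WDR75 and RXRB. The peak at the own start of COL11A2, of 2.72-fold, was dropped by each. Over all 44 collagens, 14 kept an end peak with the fold filter (31.8%, against 56.0% of all protein-coding genes). With the q filter 23 kept one (52.3%, against 66.7%), and by highest pileup 21 did (47.7%, against 65.6%). Under each of these filters the collagen share lay below that of all protein-coding genes. The count was 28 (63.6%) with a window of 500 bp, against 69.2%, and 37 (84.1%) with one of 2500 bp, against 79.2%. When an overlap of at least 200 bp was asked it was 28 (63.6%), against 71.5%.

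Among genes with an end peak, the medians of the fibrillar genes were higher in both fold and pileup, that of pileup in part through peaks beside neighbours. Median fold was 3.01 for the 10 basement membrane genes and 4.93 for the 6 fibrillar genes. Median pileup was 26.6 and 40.1 tags, with overlapping intervals of 9.15 to 41.9 and 11.8 to 53.4. Of the 6 fibrillar values 2 come from peaks that lie also at an end of a neighbour, those of COL5A2 (WDR75) and COL11A2 (RXRB). The local background implied by pileup and fold had medians of 6.40 and 7.34 tags, and its highest values lay at COL8A1, with 22.5 tags, and at the shared start of COL4A1 and COL4A2, with 16.3. Those 3 genes therefore combined a pileup above 40 tags with a fold under 3.

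**Figure D2:**
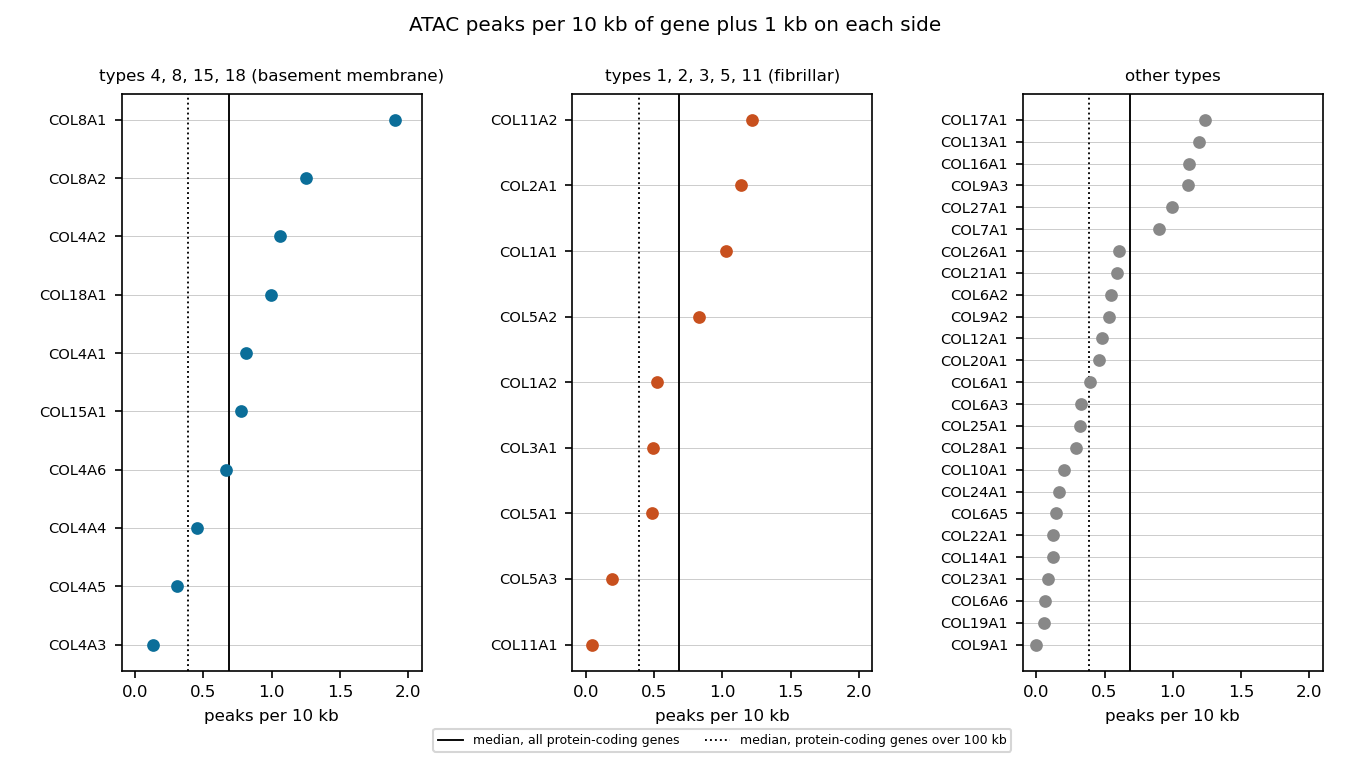
Number of peaks per 10 kb of gene plus 1 kb on each side, 1 point per collagen gene, in 3 panels by class and sorted within each, with lines at the medians of all protein-coding genes and of those over 100 kb. Basement membrane genes run from 0.131 for COL4A3 to 1.91 for COL8A1, fibrillar genes from 0.0427 for COL11A1 to 1.22 for COL11A2.

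Along the gene body, peaks were spread unevenly over the family. The 44 genes held 333 distinct peaks, of which 297 lay inside a gene more than 1 kb from its ends and 36 lay at ends. Interior peaks were smaller than end peaks, with a median length of 383 bp against 859.5 bp and a median pileup of 18.6 against 26.2 tags. The median density was 0.509 peaks per 10 kb (0.326 to 0.776), against 0.685 for all protein-coding genes and 0.389 for those over 100 kb. The 26 collagens over 100 kb had a median of 0.469. The collagen median thus fell between those of all genes and of long genes, and its interval includes both.

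By class, the median density was 0.794 peaks per 10 kb for basement membrane genes, 0.522 for fibrillar genes and 0.396 for the other types. The classes differed in gene length, with medians of 159.4, 38.4 and 139.2 kb, and the densities were not matched for it. The basement membrane and fibrillar medians differed by 0.272 (95% interval -0.51 to 0.837, with genes taken as separate draws). It was 0.0208 without type 5 and 0.601 without type 4, and with peaks of a -log10 q of at least 5 it was -0.0527. Counting interior peaks only, the medians were 0.704 and 0.550, against 0.314 for all protein-coding genes and 0.342 for those over 100 kb. Peaks were denser inside the gene than in the 100 kb on either side for 17 of 44 collagens (38.6%), 5 of them basement membrane and 5 fibrillar. The same held for 32.9% of the 17420 protein-coding genes with an interior to measure and for 37.8% of those over 100 kb, near the collagen share.

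For peak length and pileup per gene, the sign of the difference between the classes depended on which types were included. The intervals given treat genes as separate draws and are no test of the difference. Basement membrane genes had a median of 10.5 peaks and fibrillar genes a median of 2, so the per-gene values of the fibrillar genes rest on fewer peaks. The median over genes of the median peak length was 427 bp for basement membrane and 566 bp for fibrillar genes, a difference of -138 bp with an interval from -358 to 196. The same for pileup gave 18.4 and 17.8 tags, a difference of 0.62 with an interval from -5.43 to 11.1. The sign of the length difference turned without type 1 or without type 11, to 0.25 bp in each case, and that of the pileup difference turned without type 8, to -2.98, and without type 5, to -0.443. Over the distinct peaks of each class, each counted 1 time, the median length was 392 bp for basement membrane and 393 bp for fibrillar genes, and the median pileup was 21.5 and 17.1 tags. Over all collagens the medians per gene were 471 bp and 17.8 tags, against 443 bp and 19.2 tags for protein-coding genes over 100 kb.

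**Figure D3:**
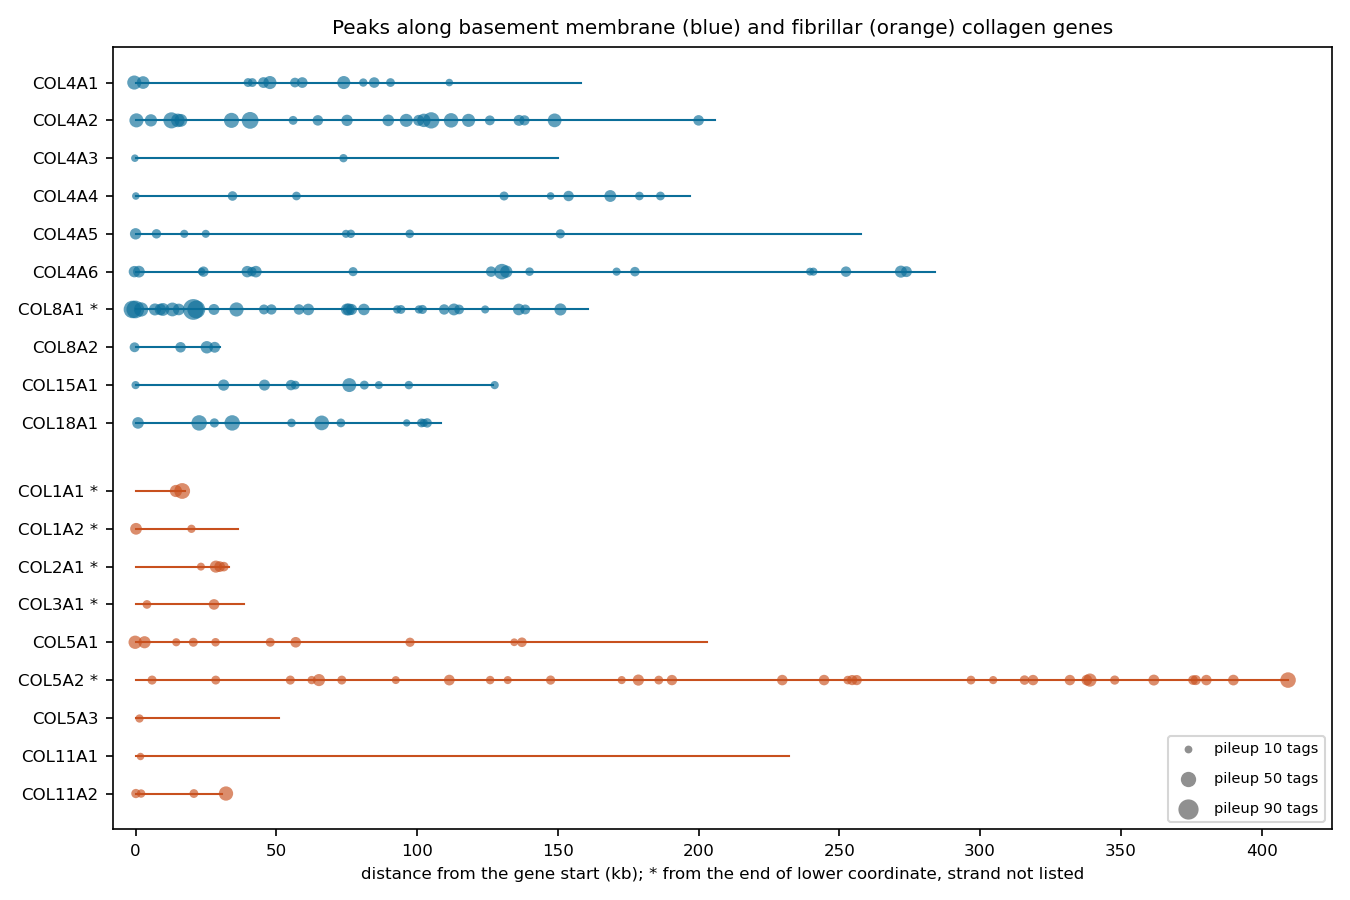
Position of every peak along the 10 basement membrane genes (blue) and 9 fibrillar genes (orange), in kb from the listed start of the gene or, where marked by an asterisk, from its end of lower coordinate. Each line is the extent of a gene and the area of a point grows with pileup. COL8A1, COL4A2 and COL5A2 are lined with 31, 22 and 34 peaks, and COL11A1 carries 1.

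COL4A1 and COL4A2 encode the chains of the type 4 network found in nearly every basement membrane. Their listed starts lay 127 bp apart, and 1 peak at chr13:110306125-110309089 spanned both. It was 2965 bp long, a length that only 19 of the 106415 peaks of the library reached, at 41.9 tags and 2.47-fold over background. COL4A1 had 13 peaks over 158 kb and COL4A2 had 22 over 206 kb. In COL4A1 no peak lay between 2.68 and 40.0 kb from the start, and the 2 highest interior peaks had 35.7 and 35.4 tags. COL4A2 was more densely filled: its highest peak, of 61.1 tags and a 6.16-fold enrichment, lay 40.7 kb inside the gene at chr13:110347459-110348509, and others of 57.3 and 55.7 tags lay 105 and 12.8 kb from the start. The 3 exceed the pileup of the shared start peak.

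COL4A3 and COL4A4, chains of the network of the kidney glomerulus, lung and inner ear, were the least accessible pair. Their starts lay 419 bp apart under 1 peak, chr2:227164062-227164712, with 9.15 tags, a level that 0.713% of end peaks of protein-coding genes did not exceed, and a fold of 3.01. COL4A3 had 1 other peak in 150 kb, of 12 tags. COL4A4 had 8 interior peaks of 9.68 to 28.5 tags, and its extent overlaps that of RHBDD1.

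COL4A5 and COL4A6 lie on the X chromosome, where 54.1% of protein-coding genes had an end peak. COL4A5 is the chain whose mutation causes X-linked Alport syndrome, and COL4A6 is found in the basement membranes of smooth muscle and epithelia. The first starts of both lay 380 bp apart. A peak of 26 tags at chrX:108439489-108440242 covered the COL4A5 start and lay within 1 kb of the COL4A6 start without covering it, and COL4A6 had a further peak of 27.9 tags at its other listed start. Inside the genes they differed, with 7 interior peaks of at most 16.6 tags in the 258 kb of COL4A5 and 17 in the 284 kb of COL4A6. The highest of COL4A6 had 52.1 tags and lay 130 kb from the start at chrX:108309090-108309561.

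COL8A1 had the highest peak density of all collagens in the whole peak list. Its product, a short-chain collagen that forms hexagonal lattices, is known from vascular and corneal endothelium. The gene held 31 peaks in 161 kb, or 1.91 per 10 kb, which is the 87.0th percentile of protein-coding genes. The 100 kb on either side were also dense, at 1.65 per 10 kb. With peaks kept by a -log10 q of at least 5, 10 peaks remained in COL8A1 (0.615 per 10 kb). With a fold of at least 4, 4 remained (0.246). Under the same filters COL4A2 had 1.01 and 0.77 per 10 kb, and COL8A2, the highest collagen, had 1.25 and 0.938. With peaks kept by highest pileup, 26 remained in COL8A1 (1.60 per 10 kb), again the highest density of the collagens. The highest peak of any collagen lay 20.5 kb from the lower end of the gene at chr3:99658781-99659455, with 95.3 tags and a fold of 4.46, and 99.6% of all peaks in the library were lower. Its end peaks had 68.3 and 66.7 tags but folds of only 2.95 and 3.0. COL8A2, its partner chain, had an end peak of 18.5 tags at the GC-rich start printed above and interior peaks of 21.5, 31.6 and 23.3 tags within 30 kb.

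COL15A1 and COL18A1 encode the multiplexin collagens, which carry sugar chains and release fragments such as endostatin, an inhibitor of vessel growth cut from type 18. In both genes the highest peak lay inside the gene and not at an end. COL15A1 had 11.4 tags at its start and 11.6 at its other end, and 40.7 tags at chr9:99019315-99020358, 75.9 kb inside. COL18A1 had 27.1 tags over a 2049 bp peak at its upstream start, chr21:45405024-45407072, and 3 interior peaks of 51.2, 50.9 and 46.2 tags at 22.6, 34.3 and 66.1 kb. The extent of COL18A1 overlaps that of SLC19A1.

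Among the fibrillar genes, both type 1 chains, which form the main collagen of bone, skin and tendon, had a peak at 1 end. COL1A1 had 53.4 tags at chr17:50200124-50201223, the highest end peak of the class, and COL1A2 had 28 tags at chr7:94394435-94395714. Each had 1 further peak, of 30.4 and 11.8 tags. COL3A1, the fibrillar collagen of vessel walls and skin, had no end peak and 2 interior peaks, of 22.1 and 13.4 tags. COL2A1, the collagen of cartilage, had no end peak but 4 peaks of 10.6 to 29.9 tags, centred 23.2 to 31.4 kb from its end of lower coordinate in a gene of 33.2 kb.

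Type 5 collagen helps to start and limit fibrils. COL5A1 had a start peak of 37.0 tags at chr9:134641230-134642115 over the window printed above, and 9 interior peaks. COL5A2 held the most peaks of any collagen, 34, but its extent of 409 kb in the gene table includes predicted models, its density was 0.827 per 10 kb, and its only end peak is the one beside WDR75. Its interior was denser than the 100 kb on either side, 0.81 against 0.15 per 10 kb. COL5A3 had 1 peak, of 11.8 tags, overlapping the 1 kb window of its start.

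Type 11 collagen forms the core of thin cartilage fibrils. COL11A1 had 1 peak in 232 kb, of 8.80 tags, whose centre lay 1.72 kb from the listed start, just outside the window, and there was no peak in the 100 kb on either side. COL11A2 had 4 peaks in 30.8 kb. The highest, of 43.2 tags, lay also at an end of RXRB, and the peak at its own first start had 15.9 tags.

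Of the other types, the highest end peaks after COL12A1 belonged to COL9A3 with 44 tags, COL7A1 with 40.3, COL13A1 with 32.4 and COL6A2 with 27.1. COL12A1 encodes a fibril-associated collagen, and its 61.1 tags at the start printed above stood over 5 interior peaks of 10.3 to 34.3 tags. COL7A1, the anchoring fibril collagen of skin, had its highest end peak at an end shared with PFKFB4 and UCN2 and 36.6 tags at its own start. The COL6A2 peak lay at the end away from its listed start, which had none. Type 6 collagen forms beaded filaments around cells, and its 5 genes held 9 peaks in all.

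Most peaks among the other types were held by COL21A1 with 20, COL13A1 with 19, COL25A1 and COL27A1 with 16 each and COL26A1 with 12. COL13A1 and COL25A1 encode membrane-spanning collagens and COL27A1 a fibrillar one outside the classical set. COL13A1 was dense at 1.19 peaks per 10 kb, with 4 end peaks of 18.7 to 32.4 tags and a highest interior peak of 48.6 tags. COL25A1, the longest collagen gene at 494 kb, had 0.323 per 10 kb. COL28A1, named after its values were seen, held the interior peak with the second highest pileup of any collagen gene, 77.3 tags at chr7:7438780-7439354, with a fold of 11.7.

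Across the 44 start entries of the 32 genes, a peak within 1 kb went with CpG content. Entries with a peak had a median of 24 CpG dinucleotides and entries without one had 4. With at least 10 CpG, 24 of 30 collagen entries had a peak (80%), against 88% of the entries of all protein-coding genes. With fewer than 10, 5 of 14 had one (35.7%), against 31.0%. The collagen entries thus followed the pattern of all genes. Entries are not separate units, since a gene with several listed starts was counted at each and head-to-head starts can share 1 peak. CpG-poor entries with a peak belonged to COL4A5, COL4A6 (2 entries), COL11A2 and COL21A1. Those with at least 10 CpG and no peak belonged to COL11A1, COL18A1 (its inner start), COL6A2, and, named after their values were seen, COL16A1, COL6A6 and COL9A1.

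**Figure D4:**
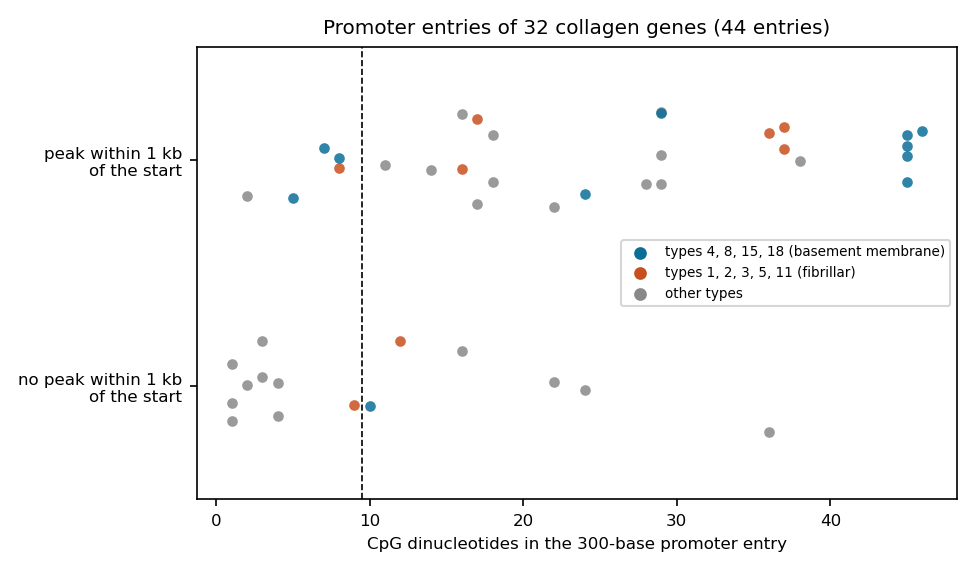
CpG dinucleotides in each 300-base start entry (horizontal axis) for entries with and without a peak within 1 kb (upper and lower band, with vertical spread added for legibility), 44 entries of 32 collagen genes coloured by class, dashed line below 10. Most entries in the upper band lie to the right of the line, and the entries left of it with a peak are 5.

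Sequence motifs were counted on both strands of the same windows. A GC box stood in 24 of 44 collagen entries (54.5%), against 56.3% for protein-coding genes and 45.0% of all 35116 entries. The CCAAT box stood in 14 (31.8% against 34.7%) and the TATA box TATAAA in 8 (18.2% against 9.47%). Of the 8 entries with a TATA box, 2 had a peak within 1 kb, those of COL7A1 and COL13A1. The AP-1 motif TGANTCA was found in 1 collagen entry, of COL10A1, against 6.15%, and the ETS motif CCGGAAG in none, against 12.8%. A match is a stretch of letters in the window and not a measured binding site.

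Genes that act on collagens were listed by role. Of 29 genes for collagen modification, folding, secretion and crosslinking, 27 had an end peak (93.1%, against 72.8% of all protein-coding genes), all but P3H2 and ADAMTS2. P3H2 had 25 interior peaks and ADAMTS2 had no peak. The highest end peak was that of P4HB, a subunit of the enzyme that hydroxylates proline in collagen, with 94.1 tags. Of 10 collagen receptors 8 had an end peak (80%, 49.0 to 94.3%, an interval that includes the share of all genes). DDR1 and LAIR1 did not, and had 2 and 1 interior peaks. ITGB1, the common chain of the collagen-binding integrins, was the highest of them with 74.5 tags. The median end peak was 46.9 tags for the processing genes and 36.2 for the receptors, against 26.8 for the collagens and 45.7 for all protein-coding genes.

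Proteins that share the matrix with each collagen class were counted the same way, and the shares of the lists were not tested against each other. Of 17 laminins, nidogens, perlecan and other basement membrane partners, 15 had an end peak (88.2%), all but LAMA1 and LAMA5, with SPARC highest at 61.7 tags. LAMA1 had 2 interior peaks and LAMA5 had 10. Of 12 proteins that bind or decorate fibrils, 6 had an end peak (50%), with FN1 highest at 62.8 tags. Those without one were DCN, LUM, PRELP, KERA, COMP and POSTN, of which DCN, KERA and POSTN had no peak at all. The label of the cells was looked at in the same way. Of 12 endothelial markers 11 had an end peak, all but FLI1. The same held for 7 of 8 neuronal and glial markers and 6 of 9 fibroblast and mural markers. Of the markers without one, FLI1 had 17 interior peaks, LUM and TCF21 had 1 each, and AQP4 and DCN had no peak. The presence of an end peak thus does not tell cell types apart in this library.

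**Figure D5:**
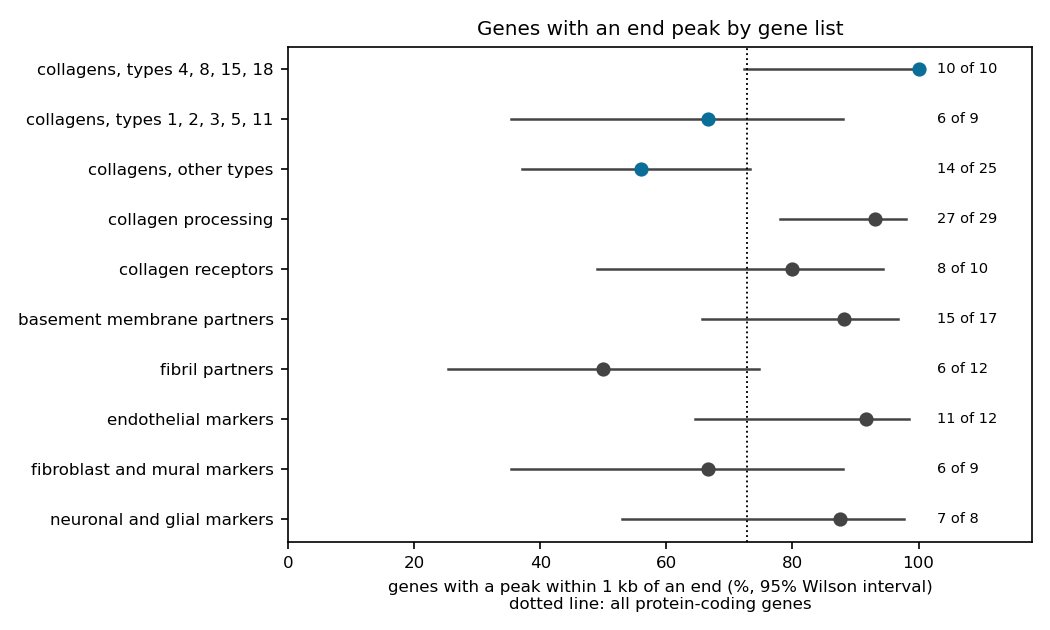
Share of genes with a peak within 1 kb of an end, in percent with 95% Wilson intervals, for the collagen classes (blue) and 7 lists of related or marker genes (grey), counts at the right, dotted line at 72.8% for all protein-coding genes. Shares run from 50% for fibril partners to 100% for basement membrane collagens, and the interval of every list except collagen processing includes the dotted line.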

How the data were processed

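The ATAC file is the authors' broad peak list, which gives for each of 106415 peaks the pileup signal, the fold enrichment ratio and the −log10 p-value and q-value. Per the file headers, the authors called peaks with MACS 2.2.7.1 without a control, shifting tags by -100 bp and extending them to 200 bp, at q of 0.05 (0.1 for broad regions), keeping 1 tag per position (22188172 of 31532245 tags), with an effective genome size of 1870000000, the mouse preset of the caller, which puts the lowest possible background at 2.37 tags. Per the submitters' processing notes, Bowtie2, SAMtools 1.13, Picard and MACS2 were used. The notes name GRCh38 and mm10, and the peak list names no build. It was placed on the GRCh38.p14 table because 72.8% of protein-coding genes had an end peak there, against 27.5 to 29.0% after offsets of 5 to 50 kb.

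Peaks were assigned to genes (Python 3.11.15, pandas 2.3.3) by an overlap of at least 1 bp with the gene or 1 kb around it. Shares carry Wilson intervals (scipy 1.17.1) and medians order-statistic intervals. The local background was taken as (pileup + 1) / fold - 1. The assignment was checked on simulated peaks. All genes of the compared types were named, and of the others those without a peak and the 5 highest by end peak and by number of peaks. The members and lists were chosen with earlier results of these data known. The 2 RNA libraries were not analysed here, since the tables used do not link their transcripts to genes.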

Additional observations from a re-analysis of the deposited data

How the results depend on the processing

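Of 124 values under other settings, 102 stayed within the interval of the value reported without a reversed sign. Another 12 moved beyond the interval and 10 changed sign. These counts do not measure robustness, since some outcomes were fixed in advance. Every basement membrane and fibrillar gene had a peak, so leaving out a type could only give a difference of 0 in that share. Dropping peaks can only lower a share or a density, and a wider window can only raise a share. The share of collagens with an end peak was 84.1% with a 2500 bp window, against 79.2% of all protein-coding genes. It was 52.3% with a -log10 q of at least 5, against 66.7%, and 31.8% with a fold of at least 4, against 56.0%. With as many peaks kept by highest pileup it was 47.7%, against 65.6%. With the fold filter, the share with any peak was 84.1%, the median density 0.278 per 10 kb and the median pileup 21.5 tags. With peaks kept by pileup these were 77.3%, 0.254 and 26.3 tags, with a median length of 590.0 bp, and with the q filter the pileup was 22.5. Filtered shares with any peak, densities, pileups and lengths were not computed over all protein-coding genes. Basement membrane minus fibrillar, the end peak share turned to -45.6 points with the fold filter and the pileup to -5.66, the density to -0.0527 and the pileup to -0.07 with the q filter, and the length to 26.8 bp with a 500 bp window and to 0.25 with types 24 and 27 added. Leaving out each of the 9 types in turn gave ranges of 25 to 50 points for end peak share, 0.0208 to 0.601 for density, -183 to 0.25 bp for length and -2.98 to 3.50 tags for pileup, and 0 for the share with any peak. The cause was not tested. No alternative leaves out a replicate, as there was 1 ATAC library. No paired analysis was possible because no contrast between groups of libraries was made. Interior peaks only, shared type 4 starts counted once and the set without COL5A2 were chosen after seeing the data, and none changed a sign. Depth limits what is seen at pileups near 8, the lowest of the list.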
